A study of Mus musculus with 20 samples.

Results

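The large ribosomal subunit (60S) is put together by a set of assembly factors, and 54 of these genes were followed here in mouse liver after knockdown of the translation initiation factor subunit Eif3m. The members are the symbols listed for the set by their known function, and 54 of 54 were found among the 38784 symbols of the deposited table. The set was chosen with earlier results of these data known. Livers came from 10 FVB/N mice aged 6 to 8 weeks that received siRNA in lipid nanoparticles through the tail vein. Each injection carried 0.5 mg/kg, with 1 given every 5 days. The control mice carried a scrambled luciferase siRNA and the others an siRNA against Eif3m, a subunit of the eIF3 complex that helps load mRNA onto the small ribosomal subunit. There were 3 control and 3 Eif3m mice at day 9 and 2 and 2 at day 13, and each mouse gave 1 RNA-seq library and 1 ribosome footprint library, 20 libraries in all. The siRNA was given to the whole animal and the liver was ground whole, so every value is a mix over its cell types, and fewer cells of a type cannot be told apart from less RNA per cell. Day 9 RNA libraries were made with KAPA mRNA capture and day 13 RNA libraries with NeoPrep, so the effects of kit and day on RNA cannot be told apart. Footprint libraries were all made with ART-seq.

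Ribosome assembly starts in the nucleolus, where RNA polymerase I makes a long precursor rRNA and where assembly factors bind it while it is cut, folded and chemically modified. The precursor of the 60S subunit then passes from the nucleolus to the nucleoplasm and the cytoplasm. On the way, helicases and GTPases rearrange it, ATPases of the AAA family strip factors off, the spacer ITS2 is removed, the 5S RNP is docked, and export adaptors take it through the nuclear pore. Most of these factors are recycled and do not stay in the finished ribosome. In liver, the amount of this machinery is known to rise when hepatocytes grow or divide, and many of its genes are described as targets of Myc, which binds the letters CACGTG.

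To show what the promoters hold, the 250 bases before the gene start were searched for CACGTG in RefSeq's promoter sequences (mouse build GRCm38.p6). The motif reads the same on both strands and was searched alone, with no other motif. Of the members, 46 matched a promoter in the table. The motif was present in 4 of these 46 (8.70%) and in 1854 of 27025 promoters of all genes (6.86%). The 4 stretches are shown 5′ to 3′ on the gene's strand, with the motif in capitals and up to 40 bases on each side. They are from Nmd3 (chr3:69721901-69721986, plus strand), Nop2 (chr6:125131783-125131868, plus strand), Rpf2 (chr10:40246980-40247045, minus strand) and Pelp1 (chr11:70410215-70410281, minus strand). The motif starts 114 bases before the gene start in Nmd3, 60 in Nop2, 26 in Rpf2 and 229 in Pelp1.
Nmd3: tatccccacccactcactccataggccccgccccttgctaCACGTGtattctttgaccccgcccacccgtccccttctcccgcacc
Nop2: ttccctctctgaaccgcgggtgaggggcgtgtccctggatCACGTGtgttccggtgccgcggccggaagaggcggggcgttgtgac
Rpf2: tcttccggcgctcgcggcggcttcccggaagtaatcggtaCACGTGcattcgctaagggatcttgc
Pelp1: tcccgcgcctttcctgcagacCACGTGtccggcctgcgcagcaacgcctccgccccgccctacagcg
Nmd3 was called higher with Eif3m siRNA in both assays at day 13. Nop2 was called higher in RNA at day 9 and in footprints at both days, and Rpf2 in RNA at day 13. Pelp1 was called in none of these comparisons. A match here describes the letters only.

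Total counts were 27.4 to 39.0 M in day 9 RNA libraries, 4.96 to 26.4 M in day 13 RNA libraries, 4.50 to 7.69 M in day 9 footprint libraries and 1.64 to 6.52 M in day 13 footprint libraries. Within a group the libraries correlated at r = 0.968 to 0.996 on the log scale and differed by more than counting noise. Levels are given as CPM, a library's counts scaled to a common total with TMM factors, in the order of the replicate numbers. Where values are joined by "against", control livers come first and Eif3m livers second, and day 9 is given before day 13. CPM does not correct for gene length, so levels are compared between groups and not between genes. Eif3m itself was at 75.8, 73.8 and 74.2 CPM in control RNA libraries and 8.27, 7.26 and 7.67 CPM in Eif3m siRNA libraries at day 9. At day 13 its RNA was at 241 and 340 against 20.3 and 15.2 CPM, and its footprints were at 76.5 and 78.7 against 5.71 and 2.46 CPM. The labels and the target thus matched in every library.

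Of the 54 60S assembly factors, 6 were called higher with Eif3m siRNA in each of 4 comparisons (RNA and ribosome footprints, days 9 and 13), and 22 were called higher in none of them. The shares of all genes called in all 4 or in none were not computed, and those of each comparison are given below. A gene was called when its adjusted p from edgeR's quasi-likelihood test, adjusted over all genes tested, was below 0.05. In RNA at day 9, 12 of the 54 members were called higher and 0 lower, where 2.48% of the 16444 genes tested were called higher and 3.19% lower. In RNA at day 13 the count was 19 higher and 0 lower, with 6.09% of all genes called higher and 9.87% lower. In footprints at day 9, 20 members were called higher and 1 lower, against 6.80% and 7.94% of 12213 genes. Footprints at day 13 had 22 members higher and 0 lower, against 6.12% and 6.28%. Because the members were chosen with earlier results of these data known, an excess over these shares is not independent evidence.

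The sizes of these changes were modest. The median log2 change of the 54 members (1 is a 2-fold rise) was 0.38 in RNA at day 9 and 0.49 at day 13, with 44 and then 47 members above 0. Over all genes tested the medians were -0.0045 and -0.16. In footprints the members' median was 0.44 at day 9 and 0.61 at day 13, with 49 and then 51 members above 0, and the median over all genes was 0.017 and 0.015. With libraries scaled by their totals alone, the median of all genes moved to 0.12 and 0 in RNA and to 0.25 and 0.34 in footprints. The members' medians were then 0.51 and 0.71 in RNA and 0.68 and 0.94 in footprints, above the median of all genes in each. The plot of changes by role shows every member.

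**Figure D1:**
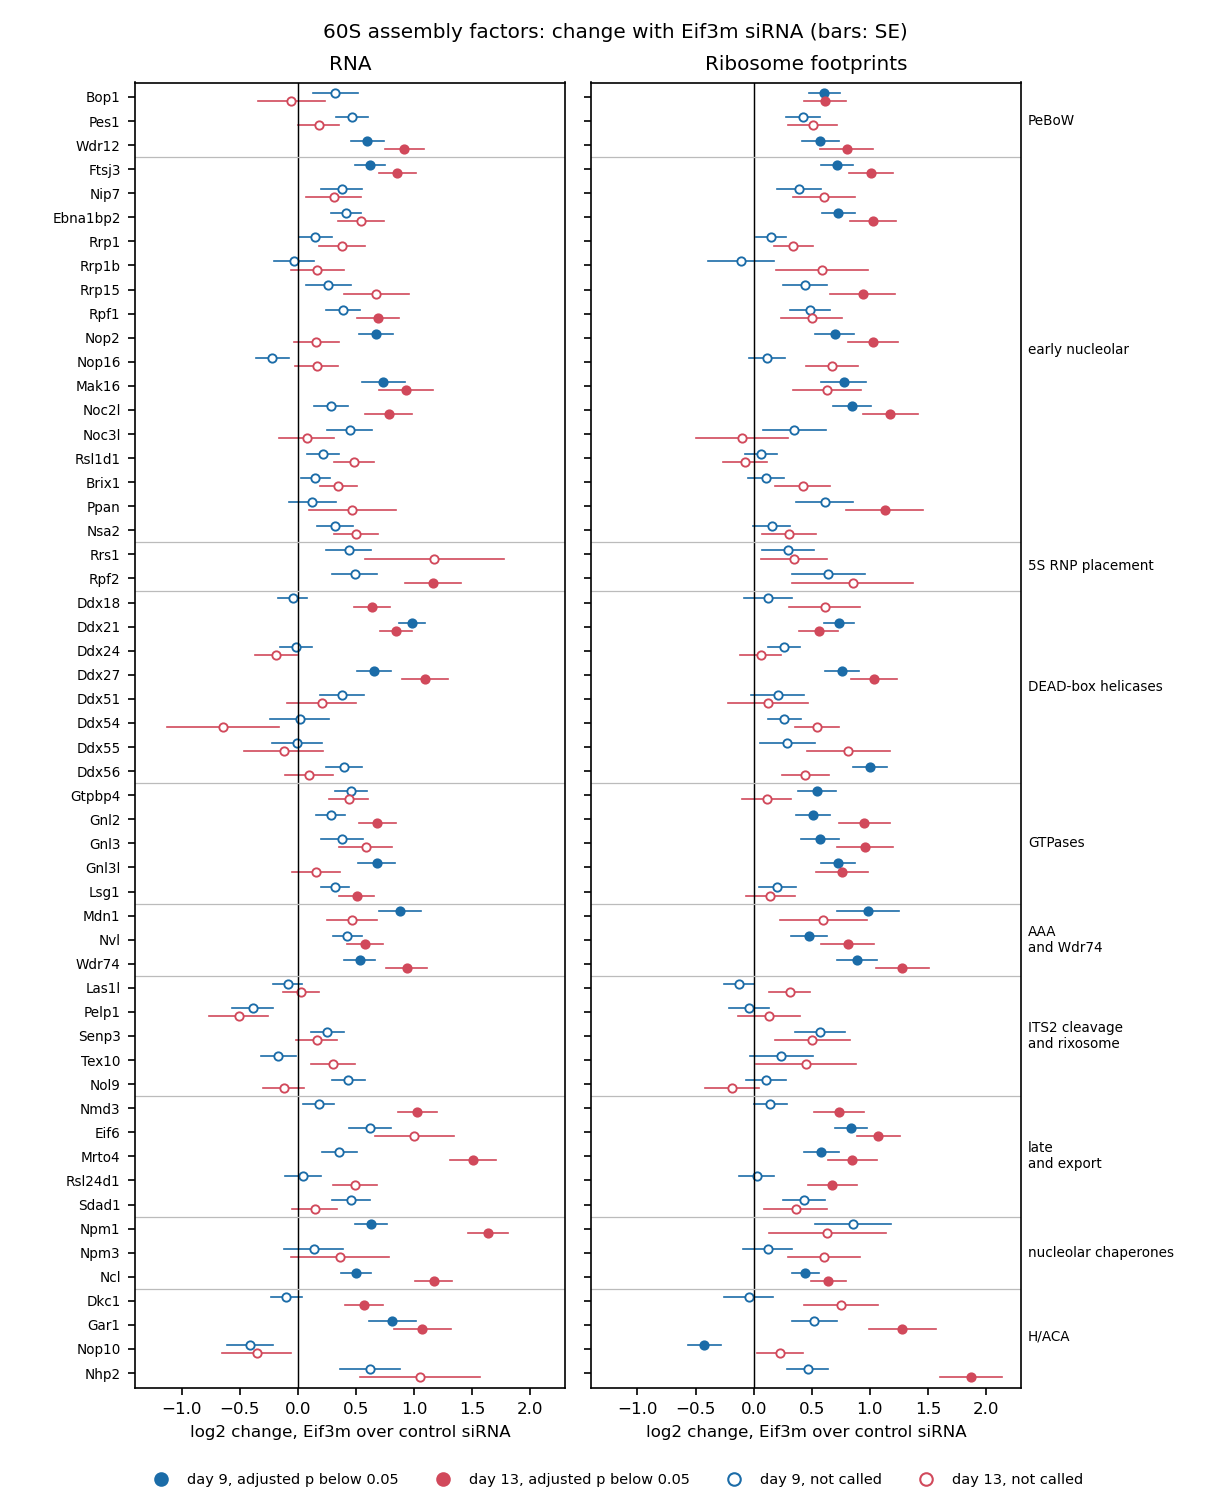
Log2 change with Eif3m siRNA (x axis) for each of the 54 members (y axis, grouped by role), in RNA on the left and in footprints on the right, at day 9 (blue) and day 13 (red), with bars for the SE and filled points for genes called at adjusted p below 0.05. Most points lie right of 0, those of ITS2 cleavage and the rixosome are all open, and Nop10 footprints at day 9 give the 1 filled point left of 0.

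Each Eif3m mouse showed the shift. The median log2 ratio of the members to the control mean was 0.288, 0.383 and 0.390 in the RNA libraries of the 3 Eif3m mice at day 9 and 0.376 and 0.488 in those at day 13. For footprints it was 0.305, 0.526 and 0.416 at day 9 and 0.603 and 0.690 at day 13. The control libraries lay between -0.0535 and 0.0604, below all Eif3m libraries. They were measured against their own mean, which holds them near 0, so this range is not an independent measure of the spread between mice. In single members, every Eif3m library was above every control library for 38 of 54 in RNA at day 9, against 18.9% of all genes, and for 33 in RNA at day 13, against 18.0%. The same held for 27 members in footprints at day 9 (15.7% of all genes) and 43 at day 13 (28.1%). For 16 members it held in all 4 comparisons: Ddx21, Ddx27, Ebna1bp2, Eif6, Ftsj3, Gar1, Gnl2, Gnl3, Mak16, Mrto4, Ncl, Npm1, Nvl, Rrp15, Wdr12 and Wdr74. The share of all genes for which it held in all 4 was not computed, so this count has no background to be read against.

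The number of calls depends on which libraries share the fit, and most so in RNA at day 9. Without any 1 of the 6 day 9 libraries, 1.8 to 2.99% of all genes were called there, against 5.67% in the reported fit. Only 1 or 2 members were called in these fits. Without day 13 control replicate 1 or replicate 2, 26 were called. With the day 9 RNA libraries fitted alone, 33 members were called (31 higher, with Pelp1 and Nop10 lower), and 25 to 33 when each of the 6 was left out of that fit in turn. Of all genes, 23.2% were called with that day alone and 14.3 to 19.9% with each library left out of it. The members' count in a fit is therefore not read apart from its share of all genes called. In RNA at day 13, 10 members were called with that day alone, and 23 higher with Ddx24, Ddx54, Pelp1 and Nop10 lower without control replicate 2. In footprints at day 9, 13 were called without Eif3m replicate 2. In footprints at day 13, 5 were called without Eif3m replicate 2, the deepest of its 4 libraries, and 10 without either control. In RNA at day 9, Ddx21 kept its call in 22 of 22 alternatives and Ddx27, Ftsj3, Gar1, Gnl3l, Mak16, Ncl, Nop2, Npm1, Wdr12 and Wdr74 in 15 to 17. These 22 include the 6 fits of that day alone with a library left out, which were added after seeing the data and gave many calls. Mdn1, also called there, was not followed over the alternatives. In footprints at day 13, Ebna1bp2, Eif6, Ftsj3, Nhp2 and Wdr74 kept theirs in 16 of 16. The members' median change moved little over the left-out libraries, from 0.33 to 0.43 in RNA at day 9, 0.37 to 0.57 in RNA at day 13, 0.40 to 0.53 in footprints at day 9 and 0.59 to 0.71 in footprints at day 13.

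**Figure D2:**
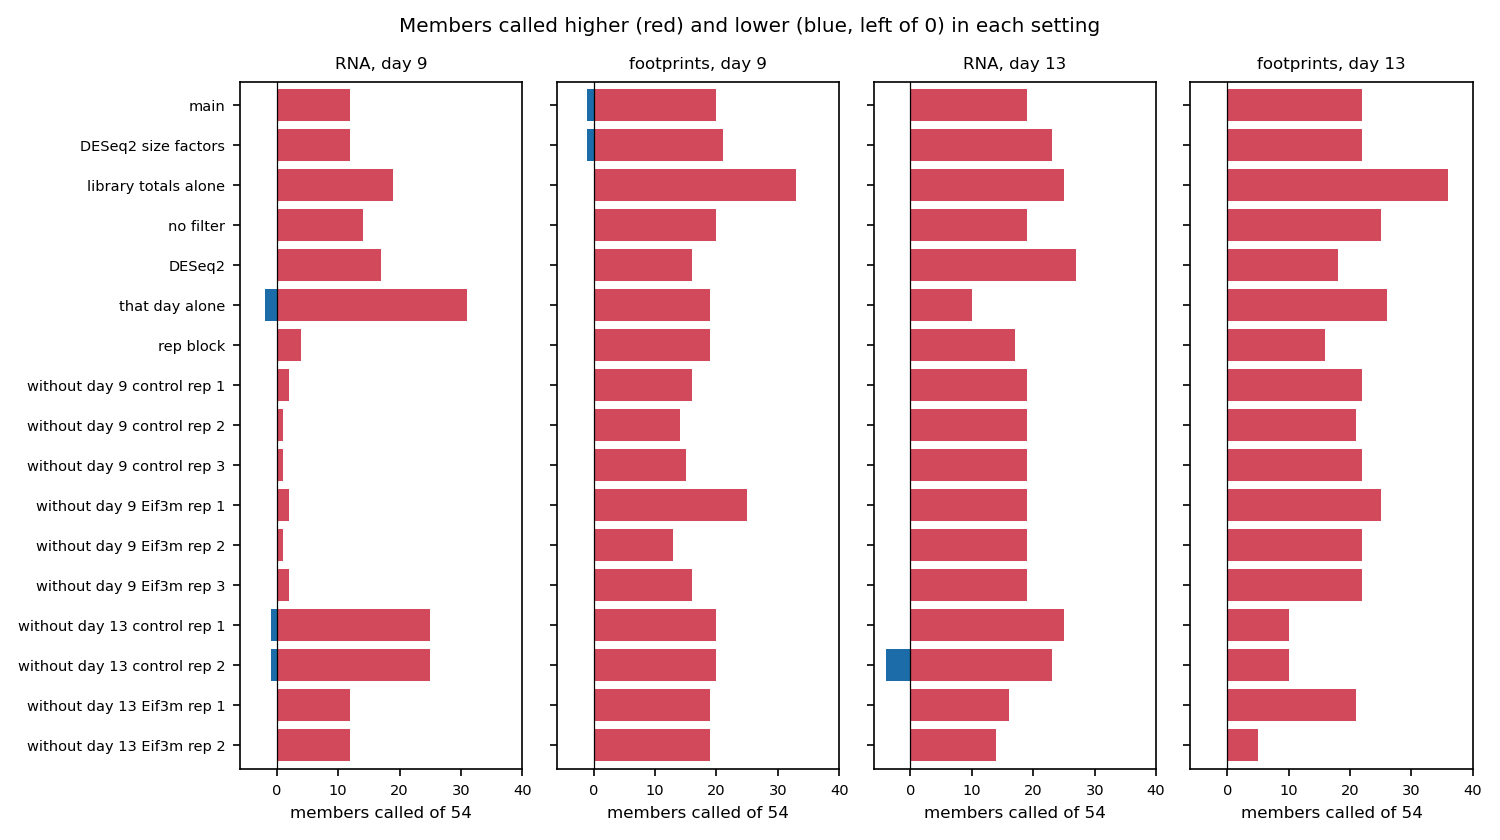
Number of members called higher (red, right of 0) and lower (blue, left of 0), out of 54 on the x axis, for each way of processing (rows), in the 4 comparisons within a day. The share of all genes called also moved between settings and is not drawn. Calls were nearly all upward in each setting, with 1 to 33 calls in RNA at day 9 and 5 to 36 in footprints at day 13.

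The 4 comparisons found overlapping members. Ddx21, Ddx27, Ftsj3, Ncl, Wdr12 and Wdr74 were called higher in all 4. Another 8 members were called in 3 of 4, 7 in 2, 11 in 1 and 22 in none. Of the 20 members called higher in footprints at day 9 and the 22 at day 13, 16 were on both lists. RNA and footprints shared 10 members at day 9 and 12 at day 13. How many of all genes were shared between the same lists was not counted.

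In the PeBoW complex, which joins Pes1, Bop1 and Wdr12 and is needed for maturation of the 60S rRNAs, Wdr12 was called in all 4 comparisons and Bop1 in footprints at both days. Wdr12 RNA was at 11.5, 11.6 and 12.4 CPM in control and 18.1, 16.8 and 18.8 CPM in Eif3m livers at day 9, and at 37.2 and 51.6 against 87.7 and 79.6 CPM at day 13. Its footprints were at 14.9, 13.3 and 15.2 against 20.3, 25.7 and 18.6 CPM at day 9 and at 17.4 and 19.7 against 29.7 and 34 CPM at day 13. All Eif3m libraries were above all controls in each set. The log2 change of Wdr12 was 0.60 (SE 0.14, adjusted p = 0.0268) and 0.92 (SE 0.17, adjusted p = 0.00415) in RNA at days 9 and 13, and 0.57 (SE 0.16, adjusted p = 0.0190) and 0.80 (SE 0.23, adjusted p = 0.0252) in footprints. Bop1, the WD repeat scaffold of the complex, had footprints at 27.8, 31.6 and 29.7 against 48.7, 47 and 40.5 CPM at day 9 and at 45.8 and 40.4 against 59.4 and 70.5 CPM at day 13. Its groups did not overlap in footprints, with changes of 0.61 (SE 0.14, adjusted p = 0.00429) and 0.61 (SE 0.18, adjusted p = 0.0307). Bop1 RNA was at 30.4, 26.7 and 29.5 against 35.4, 37.6 and 35 CPM at day 9 and at only 8.46 and 4.01 against 5.64 and 6.57 CPM at day 13, where the groups overlapped. Its RNA changes were 0.32 (SE 0.19, adjusted p = 0.385) and -0.06 (SE 0.29, adjusted p = 0.926). Pes1 passed the test in none, with log2 changes from 0.18 to 0.51. In footprints at day 13, DESeq2 called 0 of the 3, and the calls of Wdr12 and Bop1 each held in 11 of 16 alternatives, with adjusted p-values up to 0.26 and 0.32.

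Among the 16 early nucleolar factors, which bind the precursor while its domains fold, 3 were called higher in RNA at day 9 and 4 at day 13, and 5 and 6 in footprints. Ftsj3, the counterpart of the yeast rRNA methyltransferase Spb1, was called in all 4. Its RNA was at 43.2, 37.2 and 37.1 against 54, 65.6 and 60.8 CPM at day 9 and 62.9 and 71.2 against 128 and 114 CPM at day 13. Ftsj3 footprints were at 33.8, 29.6 and 25.4 against 52.4, 48.4 and 45.3 CPM and 32.4 and 36.2 against 65.7 and 71.5 CPM. No control library reached an Eif3m library. The changes were 0.62 (SE 0.13, adjusted p = 0.0144) and 0.85 (SE 0.16, adjusted p = 0.00394) in RNA and 0.72 (SE 0.14, adjusted p = 0.00135) and 1.01 (SE 0.19, adjusted p = 0.00136) in footprints.

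Ebna1bp2, the counterpart of yeast Ebp2, was called in footprints at both days. Its footprints were at 18.6, 18 and 19.2 against 33.7, 31.6 and 27.6 CPM at day 9 and 26.1 and 21.3 against 45.7 and 49.7 CPM at day 13, with changes of 0.73 (SE 0.14, adjusted p = 0.00137) and 1.02 (SE 0.20, adjusted p = 0.00167). Its RNA was at 22.3, 22.2 and 20.4 against 27, 30.3 and 29 CPM and, far lower, at 4.75 and 3.92 against 6.64 and 5.82 CPM. Groups did not overlap in any of the 4, while the RNA changes, 0.41 (SE 0.13, adjusted p = 0.0881) and 0.54 (SE 0.20, adjusted p = 0.0792), did not pass the test. Noc2l, a partner of Noc1 and Noc3 in pre-60S transport, had footprints at 14, 12.9 and 11.5 against 23.1, 26.4 and 19.7 CPM at day 9 and 19.7 and 14.9 against 34.9 and 41.7 CPM at day 13. Its RNA was at 33.9, 26.4 and 24 against 33.2, 36.9 and 32.6 CPM, where control replicate 1 lay within the Eif3m range, and at 13 and 11.3 against 19.2 and 23.1 CPM. The footprint changes of Noc2l were 0.85 (SE 0.16, adjusted p = 0.00145) and 1.18 (SE 0.23, adjusted p = 0.00206), and those of RNA 0.28 (SE 0.15, adjusted p = 0.314) and 0.78 (SE 0.20, adjusted p = 0.0194). Noc3l was called in none.

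Nop2, which methylates a cytosine of the large rRNA, had RNA at 19.3, 19 and 17.9 against 28.6, 28.8 and 32.5 CPM at day 9 and at 17.7 and 15.7 against 15.5 and 22.5 CPM at day 13. Nop2 footprints were at 14.4, 15.5 and 14.6 against 26.2, 26.2 and 20.3 CPM and 25.5 and 31.9 against 46.3 and 67.7 CPM. The groups overlapped in RNA at day 13 alone. Changes of Nop2 were 0.67 (SE 0.15, adjusted p = 0.0193) and 0.16 (SE 0.19, adjusted p = 0.628) in RNA and 0.70 (SE 0.17, adjusted p = 0.00745) and 1.03 (SE 0.22, adjusted p = 0.00350) in footprints. Mak16, a factor of the early precursor, had RNA at 5.71, 7.57 and 6.69 against 10.4, 11.5 and 11.4 CPM and 14.1 and 21.6 against 29.7 and 38.9 CPM. Mak16 footprints were at 11, 7.43 and 8.65 against 13.4, 18.6 and 14.1 CPM and 10.4 and 12.8 against 20.6 and 16.6 CPM. No groups overlapped, and its changes were 0.74 (SE 0.19, adjusted p = 0.0373) and 0.93 (SE 0.23, adjusted p = 0.0162) in RNA and 0.78 (SE 0.19, adjusted p = 0.00975) and 0.63 (SE 0.29, adjusted p = 0.182) in footprints.

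Of the other early factors, Rpf1 was called in RNA at day 13 (0.69), and Rrp15 (0.94) and Ppan (1.13) in footprints at day 13. The remaining members Nip7, Rrp1, Rrp1b, Nop16, Noc3l, Rsl1d1, Brix1 and Nsa2 passed the test in no comparison, and their log2 changes ran from -0.22 (Nop16 RNA at day 9) to 0.67 (Nop16 footprints at day 13). Rrp1b, a paralogue of Rrp1, overlapped between the groups in all 4 sets. For Nop16 every Eif3m library was below every control in RNA at day 9 and above in footprints at day 13. Rrs1 and Rpf2, which bring in the 5S RNP, gave 1 call, Rpf2 in RNA at day 13 (1.16, SE 0.24). Rrs1 RNA was down to 0.38 and 0.0967 CPM in the controls of day 13, against 0.47 and 0.751 CPM in the Eif3m livers.

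Of the 8 DEAD-box helicases, the RNA remodelling enzymes of the pathway, Ddx21 and Ddx27 were called in all 4 comparisons. Ddx21, a nucleolar helicase that also acts on RNA polymerase I transcription, had RNA at 28.8, 28.7 and 27.9 against 54.2, 60.4 and 53.5 CPM at day 9 and 41.1 and 44 against 76.2 and 76.8 CPM at day 13. Ddx21 footprints were at 37.2, 38.8 and 35.4 against 59.7, 67.6 and 58.2 CPM and 67.2 and 75 against 93.7 and 114 CPM. Each Eif3m library was above each control. The changes of Ddx21 were 0.98 (SE 0.11, adjusted p = 0.000489) and 0.85 (SE 0.14, adjusted p = 0.00189) in RNA and 0.73 (SE 0.13, adjusted p = 0.000722) and 0.56 (SE 0.17, adjusted p = 0.0324) in footprints. Its RNA calls at both days and its day 9 footprint call held in every alternative run, and its day 13 footprint call in 12 of 16.

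Ddx27, a helicase that works beside the PeBoW complex, had RNA at 25, 23.4 and 22.9 against 34.9, 40.8 and 36.5 CPM at day 9 and 9.37 and 6.53 against 16.2 and 18 CPM at day 13. Ddx27 footprints were at 21.6, 19.5 and 20.3 against 30.7, 40.6 and 32.4 CPM and 29 and 25.5 against 50.9 and 59.3 CPM. Here too the groups were apart. Changes were 0.66 (SE 0.14, adjusted p = 0.0196) and 1.09 (SE 0.20, adjusted p = 0.00331) in RNA and 0.76 (SE 0.15, adjusted p = 0.00134) and 1.04 (SE 0.20, adjusted p = 0.00176) in footprints. Ddx18 was called in RNA at day 13 (0.63) and Ddx56 in footprints at day 9 (1.00). Ddx24, Ddx51, Ddx54 and Ddx55 were called in none, with RNA changes from -0.65 (Ddx54 at day 13) to 0.38 (Ddx51 at day 9) and footprint changes from 0.06 (Ddx24 at day 13) to 0.81 (Ddx55 at day 13).

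**Figure D3:**
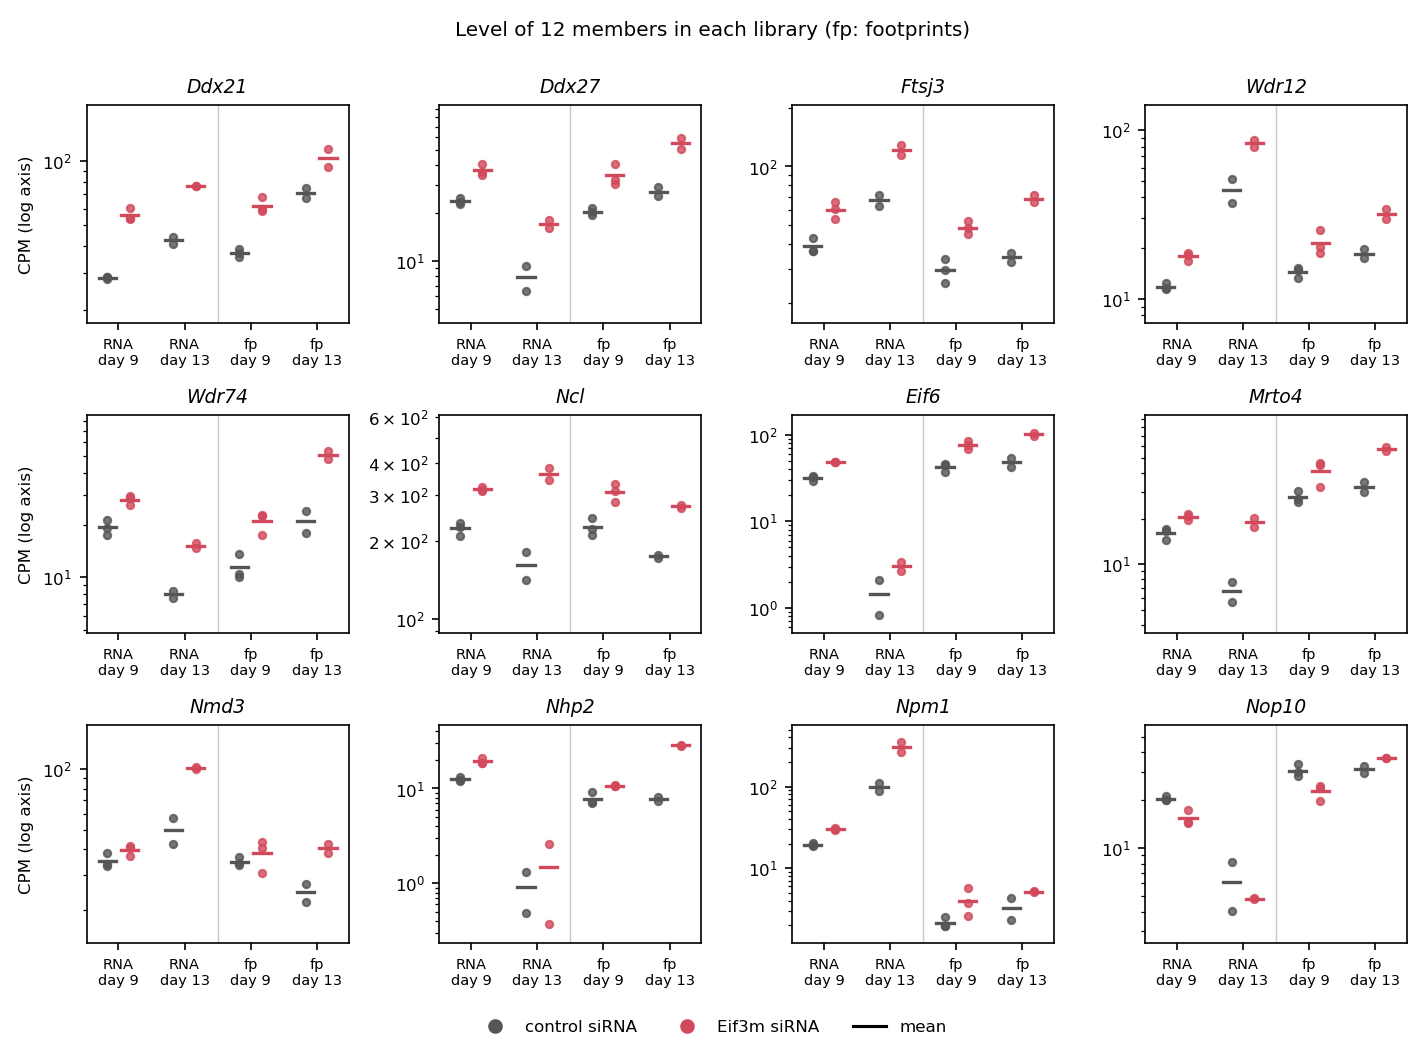
CPM on a log axis for 12 members in each library (points), with the group mean as a line, for control (grey) and Eif3m siRNA (red) in RNA and footprints (fp) at days 9 and 13. In Ddx21, Ddx27, Ftsj3, Wdr12, Wdr74, Ncl, Eif6, Mrto4 and Npm1 the red points lie above the grey ones in all 4 pairs, while those of Nop10 lie wholly below in 2.

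The nucleolar GTPases act as switches at single steps of pre-60S maturation, and 4 of 5 were called in footprints at day 9 and 3 at day 13. Gnl2, the counterpart of yeast Nog2, had footprints at 21.6, 22.8 and 24.2 against 29.8, 37.1 and 30.7 CPM at day 9 and 18.5 and 22.9 against 33.7 and 44.5 CPM at day 13. Its RNA was at 35.8, 28 and 30.5 against 36.7, 39.5 and 38.2 CPM and 26.6 and 24.9 against 42.4 and 40.2 CPM. Gnl2 groups were apart in all 4, and the changes were 0.28 (SE 0.12, adjusted p = 0.221) and 0.68 (SE 0.16, adjusted p = 0.0125) in RNA and 0.51 (SE 0.15, adjusted p = 0.0243) and 0.95 (SE 0.22, adjusted p = 0.00598) in footprints. Gnl3, nucleostemin, is known from proliferating and stem cells. Its footprints were at 14.7, 15.5 and 14.2 against 18.5, 24.2 and 23 CPM and 12.7 and 19.7 against 32 and 31.5 CPM, with changes of 0.57 (SE 0.16, adjusted p = 0.0216) and 0.96 (SE 0.24, adjusted p = 0.0104). Gnl3 RNA was at 25.5, 25.9 and 21.2 against 29.5, 30.4 and 34.3 CPM and 24.2 and 43 against 47.6 and 53.2 CPM. The RNA groups were also apart, but the changes of 0.38 (SE 0.18, adjusted p = 0.266) and 0.58 (SE 0.23, adjusted p = 0.103) did not pass the test.

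Gnl3l, the paralogue of Gnl3, had RNA at 7.64, 9.67 and 9.06 against 14.8, 14.5 and 12.9 CPM at day 9 and 10.4 and 13.8 against 13.8 and 13 CPM at day 13, where the groups overlapped. Gnl3l footprints were at 21.2, 25.3 and 26.9 against 38.2, 44.2 and 39 CPM and 23.2 and 16.5 against 32 and 34.4 CPM. Changes of Gnl3l were 0.68 (SE 0.16, adjusted p = 0.0268) and 0.16 (SE 0.21, adjusted p = 0.655) in RNA and 0.73 (SE 0.14, adjusted p = 0.00177) and 0.76 (SE 0.22, adjusted p = 0.0276) in footprints. Gtpbp4, the counterpart of yeast Nog1, was called in footprints at day 9 (0.55), and Lsg1, which works in the cytoplasm to release Nmd3, in RNA at day 13 (0.51).

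The AAA ATPases Mdn1 and Nvl and the remodelling factor Wdr74, which interacts with Nvl, were all called higher in footprints at day 9. Wdr74 had RNA at 21.5, 17.5 and 19.3 against 26.1, 29.4 and 28.6 CPM at day 9 and 7.65 and 8.32 against 15.8 and 14.7 CPM at day 13. Wdr74 footprints were at 10.1, 10.5 and 13.7 against 17.5, 22.6 and 23 CPM and 24.3 and 18.1 against 48 and 53.6 CPM. The groups were apart in each. Its changes were 0.53 (SE 0.13, adjusted p = 0.0345) and 0.94 (SE 0.18, adjusted p = 0.00470) in RNA and 0.89 (SE 0.17, adjusted p = 0.00149) and 1.28 (SE 0.23, adjusted p = 0.000901) in footprints. Nvl, which releases factors from the nucleolar precursor, had RNA at 12.5, 13.2 and 12.7 against 17, 18 and 16.5 CPM and 30.1 and 27.4 against 46.7 and 38.7 CPM. Nvl footprints were at 22.8, 20.1 and 18.2 against 26.2, 31 and 28 CPM and 22 and 14.9 against 28.6 and 34.4 CPM. Nvl was higher in every Eif3m library, with changes of 0.42 (SE 0.13, adjusted p = 0.0706) and 0.58 (SE 0.16, adjusted p = 0.0252) in RNA and 0.48 (SE 0.15, adjusted p = 0.0412) and 0.81 (SE 0.23, adjusted p = 0.0260) in footprints. The day 9 footprint call of Nvl held in 7 of 16 alternatives. Mdn1, the very large ATPase midasin, was called at day 9 in RNA (0.88) and footprints (0.98) and not at day 13.

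The 5 members that cut ITS2 or belong to the rixosome around it, Las1l, Nol9, Pelp1, Tex10 and Senp3, were called in 0 of the 4 comparisons by edgeR's quasi-likelihood test. At an unadjusted p below 0.05 there were 2 in RNA at day 9 and 1 in footprints at day 9, and DESeq2 called 1, Nol9, in RNA at day 9. Their median log2 change was -0.09 in RNA at day 9, 0.03 at day 13, 0.11 in footprints at day 9 and 0.31 at day 13. The endonuclease Las1l was at 46, 42.4 and 40.4 against 39.9, 40.8 and 40.5 CPM in RNA at day 9 and 45.9, 42.4 and 38.3 against 36.1, 40.2 and 39.6 CPM in footprints, where the groups overlapped. Pelp1 RNA was at 20.4, 17.3 and 18 against 15.4, 13.7 and 13.4 CPM at day 9, with all Eif3m libraries below all controls, and its change was -0.39 (SE 0.18, adjusted p = 0.227). Senp3, a SUMO protease that acts on Pelp1, had footprint changes of 0.57 (SE 0.21, adjusted p = 0.0779) and 0.51 (SE 0.32, adjusted p = 0.355). Whether this subset differs from the other members was not tested.

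The late factors ride on the precursor through export and are removed in the cytoplasm, and 0 of 5 were called in RNA at day 9, 2 in RNA at day 13, 2 in footprints at day 9 and 4 at day 13. In RNA at day 9, 3 were at an unadjusted p below 0.05, and DESeq2 called 1. Eif6, which keeps the subunits from joining too early, had footprints at 46.1, 44.6 and 36.9 against 75.1, 84.1 and 69.1 CPM at day 9 and 53.3 and 42.5 against 104 and 97.7 CPM at day 13. Its RNA was at 32.3, 29.3 and 33.1 against 48.1, 48.7 and 48.6 CPM at day 9 but only at 2.09 and 0.822 against 2.7 and 3.38 CPM at day 13. Each Eif3m library was higher than each control in all 4 sets. The changes of Eif6 were 0.84 (SE 0.14, adjusted p = 0.000336) and 1.07 (SE 0.18, adjusted p = 0.000578) in footprints, called in every alternative, and 0.62 (SE 0.18, adjusted p = 0.0627) and 1.00 (SE 0.34, adjusted p = 0.0638) in RNA. Mrto4, which holds the place of the stalk protein P0, had RNA at 17, 14.5 and 16.7 against 19.6, 21.3 and 20.7 CPM and 7.7 and 5.66 against 20.3 and 17.5 CPM. Mrto4 footprints were at 25.7, 30.4 and 26.9 against 32.1, 46.7 and 45.2 CPM and 34.8 and 29.8 against 56 and 59.6 CPM. Its groups were apart, and its changes were 0.36 (SE 0.15, adjusted p = 0.189) and 1.51 (SE 0.20, adjusted p = 0.000472) in RNA and 0.58 (SE 0.15, adjusted p = 0.0121) and 0.85 (SE 0.21, adjusted p = 0.00994) in footprints.

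Nmd3, the export adaptor of the 60S precursor, had RNA at 33.3, 38.3 and 34 against 37.2, 41.5 and 40.8 CPM at day 9 and 42.4 and 57.5 against 103 and 100 CPM at day 13. Its day 9 groups overlapped and its day 13 groups did not, with RNA changes of 0.18 (SE 0.13, adjusted p = 0.507) and 1.03 (SE 0.17, adjusted p = 0.00173). Footprint changes of Nmd3 were 0.14 (not called) and 0.74 (SE 0.22, adjusted p = 0.0286). Rsl24d1 was called in footprints at day 13 (0.68) and Sdad1 in none. Between the days, the difference for Nmd3 RNA was 0.85 (SE 0.21, adjusted p = 0.0721), which did not pass.

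The nucleolar chaperones bind rRNA and assembling proteins and are abundant in growing cells. Ncl, nucleolin, had RNA at 235, 227 and 208 against 312, 314 and 322 CPM at day 9 and 141 and 181 against 343 and 381 CPM at day 13. Ncl footprints were at 223, 246 and 210 against 333, 283 and 311 CPM and 177 and 172 against 267 and 276 CPM. The groups were apart in all 4, with changes of 0.50 (SE 0.13, adjusted p = 0.0391) and 1.17 (SE 0.16, adjusted p = 0.000585) in RNA and 0.45 (SE 0.12, adjusted p = 0.0136) and 0.64 (SE 0.15, adjusted p = 0.00701) in footprints. Npm1, nucleophosmin, had RNA at 19.2, 20.5 and 18.5 against 29.3, 30.8 and 30 CPM and 87.4 and 111 against 267 and 350 CPM. Its changes in RNA were 0.63 (SE 0.14, adjusted p = 0.0201) and 1.64 (SE 0.17, adjusted p = 0.000160), the latter the highest among the members in RNA. Npm1 footprints were few, at 1.95, 1.93 and 2.54 against 5.68, 2.61 and 3.69 CPM and 2.32 and 4.25 against 5.14 and 5.18 CPM, and their changes of 0.86 (SE 0.33, adjusted p = 0.0842) and 0.64 (SE 0.50, adjusted p = 0.469) did not pass. Of the 20 values of Npm1, 16 were not whole numbers, as when reads that match several places are divided, so its level is uncertain. Ddx21, Ddx27, Ftsj3, Gar1, Gnl2, Mdn1, Ncl and Nop2 were, like Npm1, among the 21 members with at least 10 of 20 values not whole. Npm3 was called in none.

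The H/ACA proteins Dkc1, Gar1, Nop10 and Nhp2 form the core that turns uridines of rRNA into pseudouridine, and their calls differed. Gar1 had RNA at 2.87, 2.95 and 2.9 against 4.64, 5.29 and 5.4 CPM at day 9 and 4.85 and 7.88 against 14.6 and 11.8 CPM at day 13. Gar1 footprints were at 6.46, 7.56 and 6.27 against 7.92, 10.1 and 10.9 CPM and 7.53 and 7.97 against 20 and 18.3 CPM. Its groups were apart, and its changes were 0.81 (SE 0.20, adjusted p = 0.0321) and 1.07 (SE 0.25, adjusted p = 0.0121) in RNA and 0.52 (SE 0.19, adjusted p = 0.0779) and 1.28 (SE 0.29, adjusted p = 0.00542) in footprints. Nhp2 footprints were at 9.16, 7.01 and 7.16 against 10.6, 11 and 10.6 CPM at day 9 and 8.11 and 7.44 against 28 and 28.8 CPM at day 13. Their changes were 0.46 (SE 0.18, adjusted p = 0.0896) and 1.87 (SE 0.26, adjusted p = 9.59e-05), the latter the highest footprint change among the members and called in every alternative. Nhp2 RNA was at 12.4, 13.1 and 12.1 against 18.6, 20.8 and 18.6 CPM at day 9 and at 1.33 and 0.483 against 2.59 and 0.376 CPM at day 13, where the groups overlapped.

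Nop10, the smallest protein of the complex, was lower in footprints at day 9. Its footprints were at 33.8, 28.3 and 30 CPM in control and 19.9, 24.5 and 24 CPM in Eif3m livers, with a change of -0.43 (SE 0.14, adjusted p = 0.0459), the 1 downward call among the members. That call held with DESeq2 size factors in edgeR and in no other alternative. Nop10 RNA at day 9 was at 21.2, 20.2 and 20 against 14.6, 14.3 and 17.3 CPM, also with no overlap, a log2 difference of -0.41 (SE 0.20, adjusted p = 0.262) that did not pass. At day 13 its footprints were at 33 and 29.8 against 36.6 and 36.8 CPM, with a change of 0.23 (SE 0.20, adjusted p = 0.517). Dkc1, the pseudouridine synthase itself, was called in RNA at day 13, at 0.57 (SE 0.17, adjusted p = 0.0342), and in no other set.

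The effect at day 13 was set against that at day 9 in the same fits. In RNA, 2 members (0 lower) had a larger change at day 13, where 0.341% of all genes were called higher and 0.888% lower. These were Mrto4, with a difference of 1.15 (SE 0.25, adjusted p = 0.0467), and Npm1, with 1.01 (SE 0.22, adjusted p = 0.0471). In footprints, 1 member was called, against 0.221% of all genes higher and 0.598% lower. It was Nhp2, with a difference of 1.41 (SE 0.33, adjusted p = 0.0462). The footprint differences of Mrto4 and Npm1 were 0.27 and -0.22 and were not called. Neither RNA difference can be told apart from the change of kit, and no RNA difference was called without any 1 day 9 library or without day 13 Eif3m replicate 2. Of 15 alternatives, Mrto4 and Npm1 were called in 6 each and Nhp2 in 5.

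The RNA levels of many members in the control livers differed between the days, while their footprint levels did so less. Control RNA was at least 4-fold lower at day 13 for 8 members, namely Bop1, Ebna1bp2, Rrp1, Ppan, Rrs1, Ddx54, Eif6 and Nhp2. It was at least 2-fold lower for 18 members, these 8 included, at least 2-fold higher for 14 and within 2-fold for 22. The log2 ratio, with 0.5 CPM added to both sides, ran from -4.03 (Eif6) to 2.46 (Sdad1). Control footprints were within 2-fold for 52 of 54, Rrs1 and Gtpbp4 being the exceptions, and their log2 ratio ran from -0.49 (Nmd3) to 1.16 (Rrs1). Of the 8 members whose RNA was at least 4-fold lower, 0 were called in RNA at day 13 and 5 in footprints at day 13. Of the other 46, 19 and 17 were called. At day 9, 0 of the 8 were called in RNA and 3 in footprints, and of the other 46, 12 and 17 were called higher. The RNA kit changed between the days and the ART-seq footprint kit did not, and for RNA the day and the kit cannot be told apart.

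**Figure D4:**
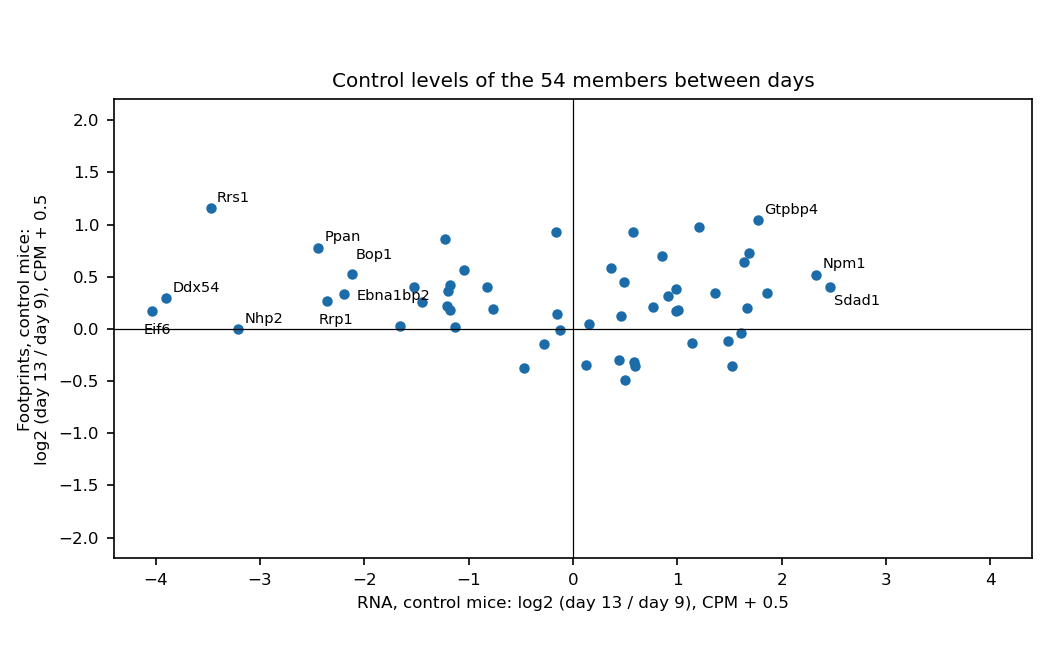
Log2 ratio of the mean control level at day 13 to that at day 9 (CPM with 0.5 added), in RNA (x axis) and in footprints (y axis), with 1 point for each of the 54 members. RNA ratios spread from -4.03 to 2.46 and footprint ratios from -0.49 to 1.16, with the members at least 4-fold apart in RNA or 2-fold apart in footprints named.

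Translational efficiency was tested as the interaction of assay and siRNA, the amount by which footprints changed beyond RNA, and none of the members passed. At day 9, 0 members were called, as were 0% of the 11970 genes tested. At day 13 it was 0 members and 0.0251% of all genes, and for the difference between the days 0 members and 0%. These counts are from edgeR's quasi-likelihood test, and DESeq2 also gave 0 in each. At an unadjusted p below 0.05 there were 2 members at day 9, 5 at day 13 and 1 for the difference. The 2 at day 9 were Ddx56, at 0.61 (SE 0.20, adjusted p = 0.826), and Noc2l, at 0.57 (SE 0.23, adjusted p = 0.951). Those at day 13 were Ddx54 at 1.10, Nop2 at 0.77, Ncl at -0.62, Rsl1d1 at -0.64 and Mrto4 at -0.76, with adjusted p from 0.303 to 0.401. The median over the members was 0.06 at day 9 and 0.11 at day 13, beside 0.03 and 0.11 over all genes. Without day 13 control replicate 2, which leaves 1 control mouse at that day, the efficiency changes at day 13 were 1.89 for Ddx54 and -1 for Rsl1d1. Calls from that fit are not read as efficiency changes of these members.

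**Figure D5:**
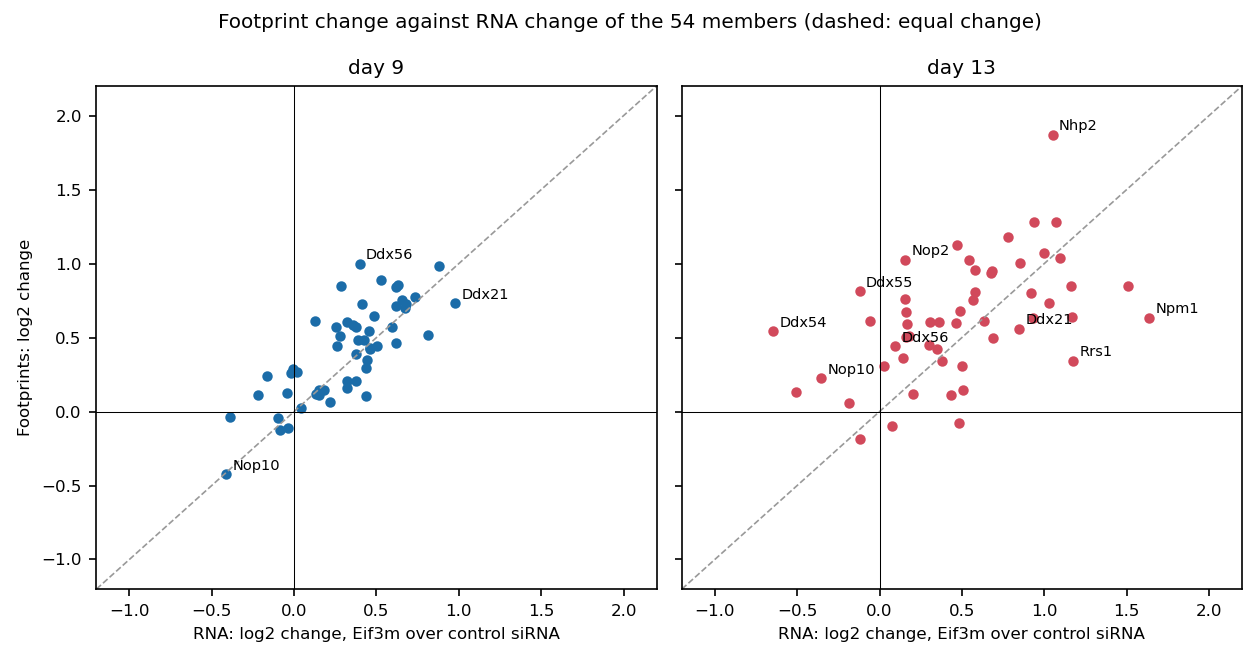
Log2 change in footprints (y axis) against log2 change in RNA (x axis) with Eif3m siRNA, for the 54 members at day 9 (left) and day 13 (right), with a dashed line where both are equal. Most points lie in the upper right, on both sides of the line, and members at least 0.7 from it are named, as are Ddx21, Ddx56 and Nop10.

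Other genes of the pathway were taken from lists of known function. Among all genes, 2.48% and 6.09% were called higher in RNA at days 9 and 13, and 6.80% and 6.12% in footprints. The counts of these lists were not tested against those shares. Of 29 further 60S assembly factors, 2 were called higher in RNA at day 9, 6 at day 13, 6 in footprints at day 9 and 5 at day 13, with 0 lower. Their median log2 changes were 0.18, 0.35, 0.32 and 0.49, in the same order. Among them Pa2g4, a nucleolar factor that also sits on finished ribosomes, had RNA at 82.4, 80.2 and 81.5 against 123, 131 and 128 CPM at day 9 and footprints at 109, 110 and 104 against 156, 218 and 205 CPM. Its 4 changes ran from 0.64 to 1.09 and were all called. Nol12 and Nle1 were called in footprints at both days, by 1.12 and 1.32 and by 1.05 and 1.30.

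The 5S RNP proteins Rpl5 and Rpl11, which Rrs1 and Rpf2 help to place, were called higher in footprints at both days and in RNA at day 13, and Rpl5 also in RNA at day 9. Rpl5 footprints were at 76.5 and 107 against 227 and 207 CPM at day 13, a change of 1.23 (SE 0.20, adjusted p = 0.000278). Of 4 core proteins of the box C/D particles, which methylate rRNA, 2 were called in RNA at each day, 2 in footprints at day 9 and 3 at day 13. Nop56 had RNA at 14.7, 12.6 and 14.4 against 28, 34.7 and 26.9 CPM at day 9 and footprints at 9.01, 9.08 and 11.9 against 29, 29.6 and 18.1 CPM, changes of 1.10 (SE 0.15, adjusted p = 0.00143) and 1.35 (SE 0.26, adjusted p = 0.00350). Nop58 RNA rose by 0.90 and 1.37 at days 9 and 13. Fibrillarin (Fbl), the methyltransferase, was called in footprints at day 13 (0.64) and had RNA changes of 0.09 and 0.13.

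Of 14 RNA polymerase I genes, 1 was called in RNA at day 9, 2 in RNA at day 13 and 1 in footprints at each day, all higher. Among all genes, 2.48%, 6.09%, 6.80% and 6.12% were called higher in these comparisons (RNA at days 9 and 13, then footprints), and a count of 1 or 2 of 14 is not read as different from those shares. They included Taf1b in RNA at day 13 (0.96), Cd3eap in RNA at day 13 (1.92) and Polr1e in footprints at day 13 (1.68). The latter 2 rest on low levels at day 13. Cd3eap RNA was at 0.808 and 0.193 against 1.65 and 2.44 CPM, and Polr1e footprints at 3.48 and 4.78 against 12 and 14.1 CPM. The telomerase protein Tert, whose RNA partner is bound by the same H/ACA proteins, was lower. Its RNA was at 14.2, 8.85 and 12.4 against 4.67, 6.07 and 6.73 CPM at day 9, a change of -1.02 (SE 0.21, adjusted p = 0.0142), and it was also called lower in RNA at day 13 and in footprints at day 9.

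Cell type markers moved as well. For their calls, the shares of all genes called higher are those given above. Among all genes, 3.19% and 9.87% were called lower in RNA at days 9 and 13, and 7.94% and 6.28% in footprints. The summed CPM of 8 hepatocyte markers, high in every library, was 156000 to 161000 in control and 115000 to 128000 in Eif3m RNA libraries at day 9, and 273000 to 314000 against 159000 to 221000 at day 13. In footprints it was 181000 to 215000 against 123000 to 144000 at day 9, and 251000 to 255000 against 132000 to 163000 at day 13. Single markers went both ways: in RNA, 4 of 8 were above 0 at day 9 (log2 changes from -0.76 to 0.89, 1 called lower) and 3 of 8 at day 13 (-0.85 to 0.97, 2 called lower). In footprints, 2 of 8 were above 0 and 3 were called lower at each day. The 8 markers of Kupffer cells and macrophages summed to 257 to 294 against 145 to 163 CPM in RNA at day 9. At day 13 the RNA sums were 169 to 233 against 54.7 to 67.1 CPM. In footprints they were 293 to 341 against 220 to 251 CPM, then 255 to 293 against 112 to 162 CPM. Singly, 3 of 8 were above 0 in RNA at day 9 (4 called lower) and 2 at day 13 (6 called lower). In footprints, 4 of 8 were above 0 at day 9 (1 called higher, 3 lower) and 1 at day 13 (3 called lower). Stellate cell markers (8 genes) were in sum higher with Eif3m siRNA in RNA at day 9 (122 to 164 against 189 to 227 CPM). In sum they were lower at day 13 (245 to 348 against 146 to 180 CPM). Footprint sums went likewise (268 to 286 against 375 to 387 CPM, then 570 to 594 against 344 to 399 CPM). Of the 7 tested, 4 were above 0 in RNA at day 9 (1 called higher) and 0 at day 13 (2 called lower). In footprints, 6 were above 0 at day 9 (3 called higher) and 1 at day 13 (2 called lower). The summed CPM of the 10 markers of proliferating cells overlapped between the groups in RNA, at 34.7 to 41.1 against 36.0 to 48.7 CPM at day 9 and 63.8 to 65.7 against 45.3 to 67.7 CPM at day 13. Singly, 8 of the 10 were above 0 in RNA at day 9, with a median log2 change of 1.22 and Mki67 and Top2a called higher, and 2 of 10 were above 0 at day 13, with a median of -0.58 and 0 called (2 at an unadjusted p below 0.05). In footprints the sums were higher at day 9 (52.5 to 62.6 against 66.1 to 73.9 CPM) and overlapped at day 13. Markers of neutrophils stayed at or below 19.5 CPM in sum, with Elane at 0 in some groups. In RNA at day 13 they were apart, at 16.3 to 19.0 CPM in control and 8.45 to 8.70 CPM in Eif3m libraries, with 0 of 4 tested above 0 and 1 called lower. Endothelial markers overlapped in sum except in RNA at day 13 (175 to 176 against 121 to 122 CPM). Singly, 0 of 6 were above 0 in RNA at day 13 (4 called lower), while 3 of 6 were above 0 in footprints (0 called). At day 9, 1 of the 6 was called higher in each assay. T and B lymphocyte markers were at or below 9.96 CPM in sum, with 0 called. Cholangiocyte markers were at or below 77.7 CPM and apart in footprints at day 13 (35.3 to 38.8 against 59.3 to 77.7 CPM). The part of these shifts in the members' changes was not tested.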

How the data were processed

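RNA-seq and ribosome footprint libraries from 10 livers were analysed from the authors' deposited table, whose values are expected counts (estimated counts) per gene symbol. Per the submitters' processing notes, cutadapt, Bowtie and Bowtie2 were used. The genome build, the counting rule and the tool versions were not given in the sources used here. Values above 0 were not whole in 44.3% of cases, and 100% lay within 0.01 of a multiple of 1/6. Among the 54 members, 21 have at least 10 of 20 values that are not whole.

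Counts were rounded. RNA and footprint libraries were fitted separately over 4 groups each with edgeR 4.0.16 in R 4.3.3 (filterByExpr, TMM, robust quasi-likelihood F test, Benjamini-Hochberg over all genes, two-sided), and all 54 members passed the filters. The SE is the log2 change divided by the square root of F. Efficiency was an interaction over the 20 libraries. Alternatives were DESeq2 1.42.0, other scalings, no filter, each day alone, blocks, and each library left out. Leaving out each library with day 9 alone was added after seeing the data. An arm left with 1 library is assumed to vary like the others. The fits were also run on simulated data with the same spread in every library and planted changes larger than the members' medians. That run is not a check of the calls reported here.

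The members and lists were chosen with earlier results of these data known. Values per library are given for members called in RNA or footprints at both days in the same direction, and for those with a called difference between days or a called efficiency. Up to 3 called genes of each other list are named, and other members are given by counts or single changes. The members with the highest level per coding length were also to be named, but coding lengths were not used here. Protein sequences were not analysed here. At day 9, same-numbered RNA libraries of the siRNA groups correlated at -0.0652 to 0.239 in their deviations, and unlike-numbered ones at -0.154 to 0.139. For footprints these ranges were -0.148 to 0.0373 and -0.106 to 0.137. With 2 libraries per group at day 13 the deviations mirror each other, so pairing cannot be read there. The siRNA groups hold different mice, and the reported fits used no pairing by replicate number.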

Additional observations from a re-analysis of the deposited data

Results flagged for a closer look

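The effect of Eif3m siRNA differed between the days for 3 members, by the test of the difference itself in edgeR. Nhp2 footprints rose more at day 13 than at day 9, by 1.41 on the log2 scale (SE 0.33, adjusted p = 0.0462). Its log2 difference ran from 1.28 to 1.50 over 15 alternatives and its largest adjusted p was 0.34. Both day 13 Eif3m libraries were above all other Nhp2 footprint libraries. Mrto4 RNA rose more at day 13 by 1.15 (SE 0.25, adjusted p = 0.0467), with 0.94 to 1.40 over the alternatives and adjusted p up to 0.11. Npm1 RNA rose more at day 13 by 1.01 (SE 0.22, adjusted p = 0.0471), with 0.79 to 1.18 over the alternatives and adjusted p up to 0.14. For both RNA differences the day and the library kit cannot be told apart. In footprints the differences between the days were 0.27 for Mrto4 and -0.22 for Npm1, neither of them called. Of the 10 RNA values of Npm1, 8 were not whole, so its level is uncertain. Groups of 3 or fewer libraries were not searched for outlying values.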

How the results depend on the processing

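Members called at both days in the same direction, or with a called difference between the days, were followed for a reversal. None of their called changes reversed under the alternatives run. Called changes of the other members were not followed in this way. The members' median efficiency difference between days, -0.05 with 0 members called, was 0.07 with library totals alone, 0.13 with no filter on low counts and 0.04 without day 13 Eif3m replicate 1. Library totals alone moved the median of all genes in RNA at day 9 from 0.00 to 0.12. With library totals alone, 19 members were called in RNA at day 9 (12 in the reported fit), 33 in footprints at day 9 (21), 36 in footprints at day 13 (22) and 1 for the RNA difference between days (2). The share of all genes called rose too, to 7.57% in RNA at day 9 (5.67% in the reported fit). In footprints it rose to 22.5% at day 9 (14.7%) and 19.3% at day 13 (12.4%). DESeq2 called 6 members for the RNA difference and 0 for the footprint difference (1). Fitting each day alone called 33 in RNA at day 9 and 10 in RNA at day 13 (19). Of all genes, 23.2% and 7.1% were called in these fits, against 5.67% and 16% in the reported fit. The replicate block called 4 in RNA at day 9 and 0 for each difference between days. It called 17 in RNA at day 13 and 19 and 16 in footprints, within 1.5 times of the reported counts. For efficiency, the animal as the block called 0 members in each comparison. Leaving out each library in turn gave 1 to 26 in RNA at day 9, 14 to 27 in RNA at day 13, 0 to 10 for their difference, 13 to 25 in footprints at day 9, 5 to 25 in footprints at day 13, 0 to 1 for their difference and 0 to 2 for efficiency at day 13. The highest RNA difference count, 10, came without day 13 control replicate 2. Day 9 RNA fitted alone with each library left out gave 25, 27, 28, 29 or 33. The cause of these shifts was not tested. Among the single members followed for a reversal and the medians of all members, 171 values lost their call with the same direction. Another 45 medians moved by more than the spread and 986 values did neither. In depth, 3 of 4 day 13 footprint libraries held 1.64 to 2.12 M counts, and the day 13 RNA of Rrs1 and Nhp2 was at or below 2.59 CPM. The part of depth in the calls was not tested.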
